A study of Homo sapiens with 9 samples.

Results

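The genes described here are 9 genes of the MHC class I antigen presentation pathway, *HLA-B*, *HLA-C*, *HLA-E*, *B2M*, *TAP1*, *TAP2*, *TAPBP*, *PSMB8* and *PSMB9*. They were picked by symbol as members of the pathway, with earlier results of these data known, and each matched 1 of the 28395 genes counted in RNA-seq libraries of 3 human kidney cell lines. HK2 is an immortalized line of proximal tubule cells, carrying papillomavirus oncogenes, and served as the non-tumor line. 786-O is a parental line of clear cell renal cell carcinoma (ccRCC) that lacks functional VHL, and 786-M1A is its metastatic derivative. Each line was represented by 3 cultures without treatment, 9 libraries in all, and every culture had been grown stably in Plasmax, a medium with the composition of human plasma. Each group is therefore 1 cell line, and HK2 and 786-O do not come from the same person. Differences between tumor and normal tubule, differences between donors and the viral immortalization of HK2 thus cannot be told apart.

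In every nucleated cell, proteasomes cut cytosolic proteins into peptides, and the transporter made of TAP1 and TAP2 moves these peptides into the endoplasmic reticulum. There, tapasin (TAPBP) bridges the transporter to an empty class I molecule, which consists of a polymorphic heavy chain (HLA-B or HLA-C, among others) and the invariant light chain beta-2-microglobulin (B2M). Loaded molecules travel to the cell surface, where CD8+ T cells read them, and HLA-E, which presents peptides from the leader sequences of other heavy chains, is read by natural killer cells. PSMB8 and PSMB9 are the interferon-inducible catalytic subunits that replace PSMB5 and PSMB6 in the immunoproteasome. Interferon-gamma, in part through IRF1, and the transactivator NLRC5 are known to raise transcription of most of these genes.

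Of the 9 genes, 8 lie on chromosome 6 in the MHC region and *B2M* lies on chromosome 15. *TAP1* and *PSMB9* are read in opposite directions from start sites 488 bases apart. RefSeq promoters on GRCh38.p14, from 250 bases before to 50 bases after each start site, were at hand for 8 of the 9 genes, with *HLA-E* not analysed here. The promoters of *B2M* (chr15:44711267-44711566, plus strand), *TAP1* (chr6:32853655-32853954, minus strand), *HLA-B* (chr6:31357130-31357429, minus strand) and *TAP2* (chr6:32838690-32838989, minus strand) are printed here because the first 3 genes were among those about 2-fold or more above HK2 in both cancer lines, while *TAP2* was below HK2. Capitals mark matches, on either strand, to a pattern of interferon regulatory factors (IRF), GAAA and GAAA with 2 bases of any kind between them, and to a pattern of NF-kB sites, GGG, 2 bases of any kind, TT, 1 base of any kind and CC. These are letters of the reference genome and not of the cell lines, whose *HLA-B* alleles may differ.
B2M: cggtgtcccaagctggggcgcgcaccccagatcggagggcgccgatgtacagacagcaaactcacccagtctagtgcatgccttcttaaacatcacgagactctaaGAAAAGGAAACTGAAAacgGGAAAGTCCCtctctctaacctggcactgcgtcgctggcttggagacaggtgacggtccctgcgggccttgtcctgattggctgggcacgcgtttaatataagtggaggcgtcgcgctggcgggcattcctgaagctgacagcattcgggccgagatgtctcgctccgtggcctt
TAP1: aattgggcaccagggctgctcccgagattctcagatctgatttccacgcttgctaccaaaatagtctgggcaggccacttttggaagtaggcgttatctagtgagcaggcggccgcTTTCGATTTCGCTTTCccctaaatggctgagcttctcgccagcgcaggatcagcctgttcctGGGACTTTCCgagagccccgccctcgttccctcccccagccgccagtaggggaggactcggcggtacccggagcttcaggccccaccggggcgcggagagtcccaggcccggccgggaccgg
HLA-B: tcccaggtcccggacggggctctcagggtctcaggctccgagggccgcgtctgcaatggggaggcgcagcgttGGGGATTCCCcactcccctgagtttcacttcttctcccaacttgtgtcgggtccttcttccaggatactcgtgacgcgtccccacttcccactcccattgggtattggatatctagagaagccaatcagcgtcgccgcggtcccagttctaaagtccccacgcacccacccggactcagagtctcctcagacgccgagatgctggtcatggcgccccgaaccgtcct
TAP2: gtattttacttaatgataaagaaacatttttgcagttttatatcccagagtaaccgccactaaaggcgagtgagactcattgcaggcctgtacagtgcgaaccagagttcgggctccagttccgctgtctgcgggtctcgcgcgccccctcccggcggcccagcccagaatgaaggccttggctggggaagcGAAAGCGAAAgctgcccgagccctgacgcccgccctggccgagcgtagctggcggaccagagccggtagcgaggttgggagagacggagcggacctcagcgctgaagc

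The IRF pattern was found in the promoters of 5 of the 8 genes, *B2M*, *TAP1*, *TAP2*, *TAPBP* and *PSMB8*, with any of a gene's annotated start sites counted. Of all 27305 genes with such windows, 4.38% held it when counted in this way. In *B2M*, *TAP1* and *TAPBP* it occurred as 2 overlapping matches, and in *TAP2* as 1 match. The NF-kB pattern was present in *HLA-B*, *B2M*, *TAP1* and *TAPBP*, against 6.85% of all genes. The NF-Y pattern CCAAT was held by 5 of the 8 (39.7% of all genes) and the CREB pattern TGACG by 6 (28.4%). *TAP1* and *PSMB8* have 2 such windows each. The IRF matches of *TAP1* lay in the first, printed here, and that of *PSMB8* in the second. Matches are a description of these windows, and binding was not measured.

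The libraries held 30212291 to 45362428 counted reads. Levels are given as CPM, the count scaled to the library total after correction by edgeR's TMM factors. A mean count of 50 or more was reached by 12695 genes, all 9 described here among them, and these were tested with edgeR's quasi-likelihood test. Adjustment of p-values followed Benjamini-Hochberg across all 12695, and a gene is said to be called at an adjusted p under 0.05. The smallest p that exact permutation of 3 cultures against 3 allows (two-sided) is 0.1, and every call among the 9 genes had libraries that did not overlap. The lines fitted their labels in part. Of 6 tested markers of ccRCC with lost VHL function, 5 were called higher in 786-O and in 786-M1A than in HK2. Among all genes tested, 41.6% were called higher in each line. *CA9*, however, had 0 to 3 counts in every library. Of 7 tested tubule markers, 3 were called higher and 3 lower in each cancer line than in HK2. The shares of all genes tested were 41.6% higher in each line, and 42.6% and 43.3% lower. The tubule factor *PAX8* was at 167, 165 and 182 CPM in HK2, 786-O and 786-M1A, and *LRP2*, the megalin of mature proximal tubule, had 0 counts throughout. In the same order, *LHX1* was at 101, 37.5 and 22.5 CPM and *ANPEP* at 1.75, 112 and 19.8 CPM, both named after their values were seen. The leukocyte markers *PTPRC*, *CD3E* and *MS4A1* had 0 counts in all 9 libraries. The summed level of 15 leukocyte markers ran from 64.9 to 68.1 CPM over the HK2 libraries, from 34.2 to 36.4 for 786-O and from 38.3 to 42.5 for 786-M1A. Most of it came from *CD68* and *CSF1R*. Which cells held their mRNA, and the part of this sum in the differences, were not tested. The summed level of 9 fibroblast and pericyte markers ran from 103 to 111 CPM in HK2, 289 to 358 in 786-O and 312 to 316 in 786-M1A. Most of it was *COL1A1* in 786-O (292 CPM) and *PDGFRB* in 786-M1A (282 CPM). Of the 6 tested, 3 were called higher and 3 lower in 786-O than in HK2, and 2 higher and 4 lower in 786-M1A. Beside this, 41.6% of all genes tested were higher in each line, and 42.6% and 43.3% lower. The 6 had medians of 0.46 and -1.87 on the log2 scale, where all genes tested had -0.01 and -0.02. *COL1A1* was at 53.8 CPM in HK2 and 16.5 CPM in 786-M1A, and *LUM* and *RGS5* were called lower in both cancer lines. The part of these markers was likewise not tested. In such bulk cultures, fewer cells that express a gene and less of its mRNA per cell cannot be told apart.

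To compare the pathway between a tumor line and the immortalized non-tumor tubule line, 786-O was first set against HK2. Heavy chains, light chain, *TAP1* and tapasin were all more abundant in 786-O, whereas *TAP2* was slightly less abundant and the immunoproteasome subunits differed little. Of the 9 genes, 7 were called higher and 1 lower, where 41.6% of all genes tested were called higher and 42.6% lower. *HLA-B*, *HLA-C*, *B2M* and *TAP1*, 4 of the 9, were called and 2-fold or more apart, against 22.3% of all genes tested. Their median log2 fold change was 0.55, beside -0.01 over all genes tested. The log2 fold changes of the 9 genes are plotted with their standard errors for all comparisons.

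**Figure D1:**
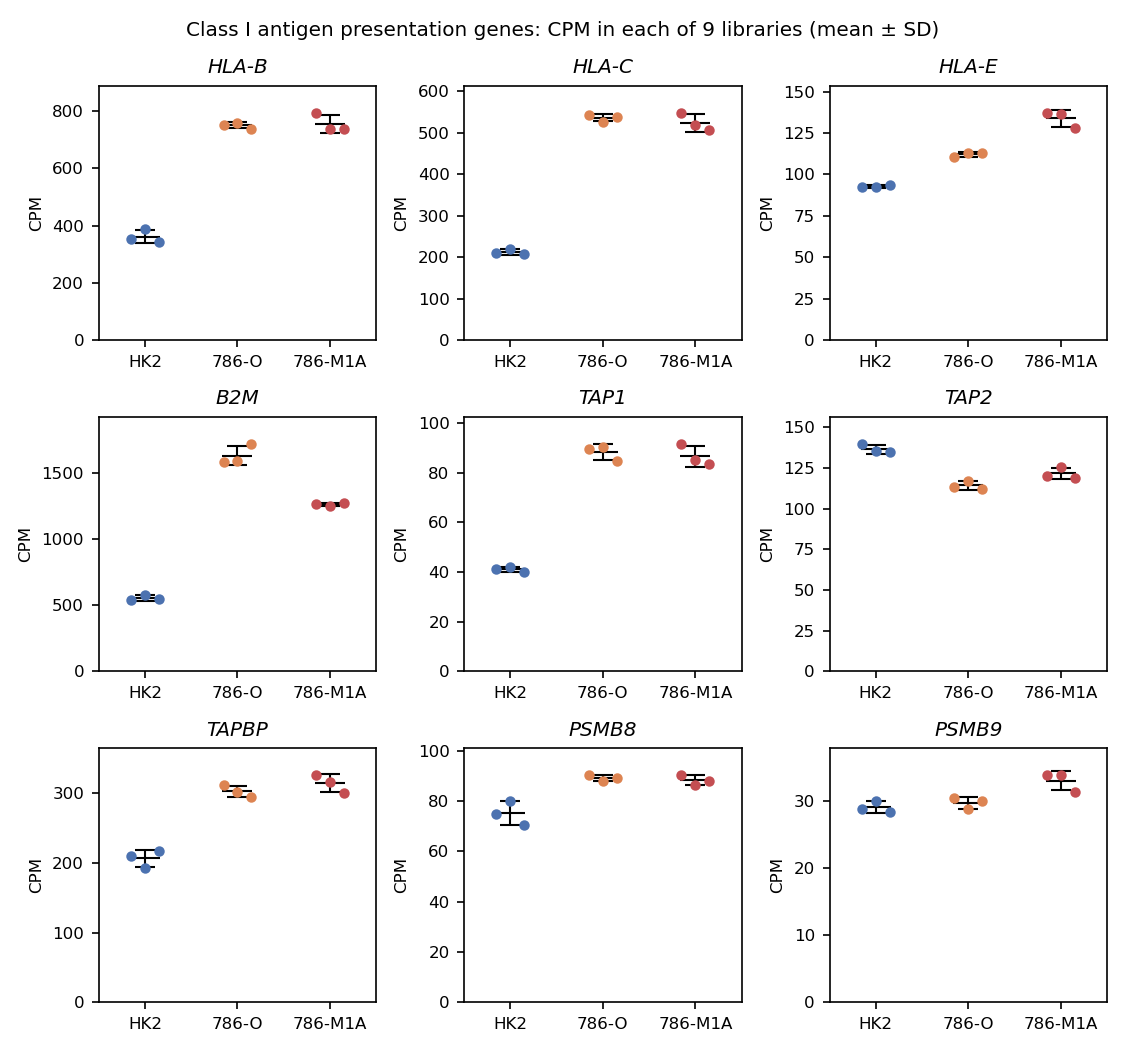
CPM (vertical axes, from 0) of the 9 class I presentation genes in the 3 libraries of HK2, 786-O and 786-M1A, with points for libraries and black marks for mean ± SD. *HLA-B*, *HLA-C*, *B2M* and *TAP1* lie at about 2-fold or more above HK2 in both cancer lines, *B2M* falls from 1634 CPM in 786-O to 1262 CPM in 786-M1A, and *TAP2* alone is lower than in HK2.

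*B2M*, the light chain common to all class I molecules, was at 540, 578 and 550 CPM in the 3 HK2 libraries and at 1589, 1594 and 1719 CPM in those of 786-O. Every 786-O library was thus far above every HK2 library. The log2 fold change was 1.56 (standard error 0.04, edgeR adjusted p = 6.57e-20), a 2.94-fold difference and the largest of the 9.

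*HLA-B*, a classical heavy chain that presents peptides to CD8+ T cells, was at 355, 388 and 345 CPM in HK2 and at 751, 760 and 739 CPM in 786-O. *HLA-C*, the classical heavy chain that is also the main ligand of natural killer cell receptors of the KIR family, was at 210, 220 and 208 CPM in HK2 and at 542, 526 and 538 CPM in 786-O. The libraries of both lines were well apart for either gene. The log2 fold change was 1.05 for *HLA-B* (standard error 0.04, edgeR adjusted p = 6.03e-16) and 1.33 for *HLA-C* (standard error 0.04, edgeR adjusted p = 1.23e-18). *HLA-E* differed less, with 92.5, 92.3 and 93.9 CPM in HK2 and 111, 113 and 113 CPM in 786-O (log2 fold change 0.27, standard error 0.04, edgeR adjusted p = 1.23e-06), and the libraries of the lines did not overlap.

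Heavy chains are polymorphic and have close relatives, so the sequence they share with other genes was examined on the reference. Of all windows of 75 bases, the length of the sequencing kit's reads, in the canonical transcript, 0% of *HLA-B*, 1.98% of *HLA-C* and 2.30% of *HLA-E* occurred unchanged in a transcript of another named gene. Windows that match another gene with mismatches were not counted, so reads assigned to the wrong relative are not excluded. For *HLA-C* the gene with most shared windows was *HLA-H* and for *HLA-E* it was *HLA-G*. The share was 0% for *B2M*, *PSMB8* and *PSMB9*, 0.230% for *TAP1*, 0.108% for *TAP2* and 1.69% for *TAPBP*. How well the alleles of each line match the reference on which the reads were counted was not tested. 786-M1A derives from 786-O, so that this limit bears on the comparisons with HK2.

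The transporter subunits went opposite ways. *TAP1* was at 41.2, 42.2 and 39.9 CPM in HK2 and at 89.7, 90.6 and 84.8 CPM in 786-O (log2 fold change 1.10, standard error 0.05, edgeR adjusted p = 1.37e-15). *TAP2*, with which it forms the heterodimer, was at 140, 135 and 135 CPM in HK2 and at 113, 117 and 112 CPM in 786-O. All 786-O libraries lay below all HK2 libraries for *TAP2*, and its log2 fold change was -0.26 (standard error 0.04, edgeR adjusted p = 2.28e-06). *TAPBP* was at 209, 193 and 217 CPM in HK2 and at 311, 301 and 294 CPM in 786-O, again without overlap (log2 fold change 0.55, standard error 0.04, edgeR adjusted p = 1.17e-10).

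Of the immunoproteasome subunits, *PSMB8* was at 74.95, 80.03 and 70.5 CPM in HK2 and at 90.1, 88.1 and 89.1 CPM in 786-O. It was called higher by a small difference (log2 fold change 0.25, standard error 0.04, edgeR adjusted p = 2.77e-05). *PSMB9* was at 28.9, 30.02 and 28.4 CPM in HK2 and at 30.5, 28.7 and 30.04 CPM in 786-O. Here the libraries of the lines overlapped, and no difference was called (log2 fold change 0.03, standard error 0.05, edgeR adjusted p = 0.533). The gene models of *PSMB9*, *TAP1*, *PSMB8* and *PSMB8-AS1* overlap in part in GENCODE, with *PSMB8-AS1* at 57 to 129 counts per library. The libraries were prepared with a stranded kit, but the use of the strand in counting is not given in the sources used here, so that reads from opposite strands at these overlaps may have been counted together.

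**Figure D2:**
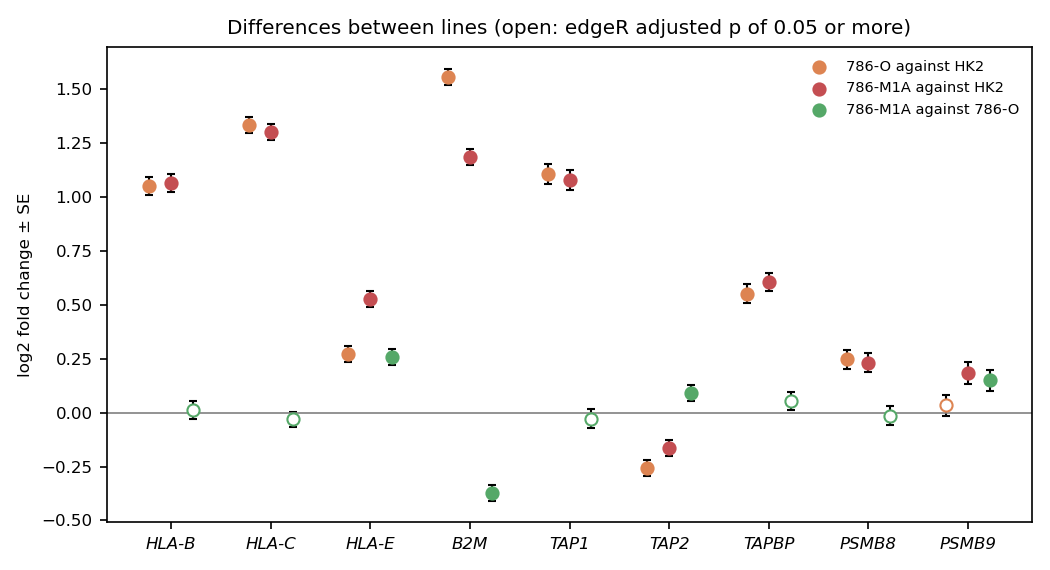
Log2 fold change (vertical axis) of each of the 9 genes in the 3 comparisons, with bars for the standard error from edgeR, filled points for genes called and open points for the others. The 2 comparisons with HK2 share its libraries and show 4 genes above 1 in each, and between 786-M1A and 786-O the values run from -0.37 for *B2M* to 0.26 for *HLA-E*.

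The metastatic line was then compared with HK2, with the same HK2 libraries as above. In 786-M1A, 8 of the 9 genes were called higher and 1 lower, against 41.6% and 43.3% of all genes tested. The same 4 genes, *HLA-B*, *HLA-C*, *B2M* and *TAP1*, differed by at least 2-fold, as did 25.4% of all genes tested. The median log2 fold change of the 9 was 0.60, beside -0.02 over all genes tested. *HLA-C* led with 546, 517 and 506 CPM in the 786-M1A libraries, 2.46-fold above HK2 (log2 fold change 1.30, standard error 0.04, edgeR adjusted p = 1.67e-18). *B2M* was at 1266, 1250 and 1271 CPM, 2.27-fold above HK2 (log2 fold change 1.18, standard error 0.04, edgeR adjusted p = 6.45e-18). *HLA-B* was at 793, 739 and 736 CPM (log2 fold change 1.06, edgeR adjusted p = 4.30e-16) and *TAP1* at 91.5, 85.1 and 83.4 CPM (log2 fold change 1.08, edgeR adjusted p = 2.02e-15). For these 4 genes the lowest 786-M1A library was above the highest HK2 library.

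*TAPBP* was at 325, 316 and 299.95 CPM in 786-M1A (log2 fold change against HK2 0.60, edgeR adjusted p = 2.11e-11) and *HLA-E* at 137, 137 and 128 CPM (log2 fold change 0.53, edgeR adjusted p = 2.50e-11). *PSMB8* was at 90.2, 86.3 and 88.0 CPM (log2 fold change 0.23, edgeR adjusted p = 6.22e-05) and *PSMB9* at 33.8, 33.8 and 31.4 CPM (log2 fold change 0.18, edgeR adjusted p = 0.00192). All libraries of 786-M1A were above those of HK2 for these 4 genes as well, by less than 2-fold. *TAP2*, at 120, 126 and 119 CPM, was the gene called lower (log2 fold change -0.17, standard error 0.04, edgeR adjusted p = 4.11e-04), with every 786-M1A library below every HK2 library.

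Between 786-M1A and its parental line, most of the pathway differed little. As 1 derivative was compared with 1 parent, metastasis cannot be told apart from other differences between these lines. Of the 9 genes, 3 were called higher and 1 lower in 786-M1A, where 27.9% and 28.0% of all genes tested were called, and 0 differed by at least 2-fold, against 6.59%. *B2M* fell by 0.37 on the log2 scale (standard error 0.04, edgeR adjusted p = 1.57e-08), with the highest 786-M1A library at 1271 CPM and the lowest of 786-O at 1589 CPM. *HLA-E* was higher (log2 fold change 0.26, standard error 0.04, edgeR adjusted p = 6.49e-06), its lowest 786-M1A library at 128 CPM and the highest of 786-O at 113 CPM. Thus the order of the lines was HK2, 786-M1A, 786-O for *B2M* and HK2, 786-O, 786-M1A for *HLA-E*, with each step larger than the spread of the libraries.

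*PSMB9* was called higher in 786-M1A (log2 fold change 0.15, standard error 0.05, edgeR adjusted p = 0.0141), with no overlap of the libraries. This call was lost without 786-O replicate 2 (log2 fold change 0.13, edgeR adjusted p = 0.0592). *TAP2* was at the threshold (log2 fold change 0.09, edgeR adjusted p = 0.0488), and the call was lost under 5 other settings and without 786-O replicate 1 (edgeR adjusted p = 0.0923), 786-O replicate 3 (0.155) or 786-M1A replicate 2 (0.157). *HLA-B* (log2 fold change 0.01), *HLA-C* (-0.03), *TAP1* (-0.03), *TAPBP* (0.05) and *PSMB8* (-0.02) were not called, with standard errors of 0.04 each and libraries that overlapped. For *TAP2*, *HLA-B*, *HLA-C*, *TAP1*, *TAPBP* and *PSMB8* the order of 786-O and 786-M1A was therefore not resolved, while the position of HK2 was.

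Levels of different genes were compared per kb of the canonical transcript. In HK2, *B2M* was the most abundant at 589 ± 21.4 CPM per kb (SD, n = 3), before *HLA-B* (236 ± 14.6) and *HLA-C* (138 ± 4.17). *PSMB8* (66.9 ± 4.25 CPM per kb) and *TAPBP* (59.8 ± 3.63) followed, with libraries that overlapped, then *HLA-E* (36.5 ± 0.344), *PSMB9* (28.6 ± 0.831) and *TAP2* (24.2 ± 0.484). *TAP1* was the lowest at 15.3 ± 0.428 CPM per kb. In 786-O the light and classical heavy chains kept their places, at 1733 ± 78.3, 488 ± 6.81 and 347 ± 5.47 CPM per kb, but *TAP2* was the lowest at 20.2 ± 0.461, below *TAP1* at 32.9 ± 1.15. In 786-M1A *TAP2* was again the lowest at 21.6 ± 0.642 CPM per kb, and *TAP1* (32.3 ± 1.59) and *PSMB9* (32.4 ± 1.39) overlapped.

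Since genes of the pathway act in pairs, ratios of CPM per kb within a library, which do not depend on the scaling of the libraries, were computed. They were chosen after the values were seen. The ratio of *TAP1* to *TAP2* was 0.620, 0.656 and 0.624 in HK2, 1.67, 1.62 and 1.59 in 786-O, and 1.60, 1.42 and 1.47 in 786-M1A. It was 2.57-fold higher in 786-O than in HK2 and 2.36-fold higher in 786-M1A (exact two-sided permutation test, p = 0.1 for each), while both cancer lines overlapped. The ratio of *PSMB8* to *PSMB5*, the constitutive subunit it replaces, was 0.359, 0.362 and 0.344 in HK2, 0.710, 0.709 and 0.696 in 786-O, and 0.704, 0.719 and 0.733 in 786-M1A. This was 1.99-fold and 2.02-fold above HK2 (exact permutation p = 0.1 for each), again with overlap between the cancer lines.

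The ratio of *PSMB9* to *PSMB6* was 0.146 ± 0.00197 (SD, n = 3) for HK2, 0.209 ± 0.00204 for 786-O and 0.247 ± 0.0117 for 786-M1A, and no pair of lines overlapped. That of *PSMB10*, the third inducible subunit, to *PSMB7* was 0.226 ± 0.0111, 0.244 ± 0.00323 and 0.214 ± 0.0150, with overlap between HK2 and 786-M1A. For *PSMB8* to *PSMB5* the log2 difference from HK2 was 0.99 in 786-O and 1.02 in 786-M1A, beside 0.25 and 0.23 for *PSMB8* and -0.74 and -0.79 for *PSMB5* alone. For *PSMB9* to *PSMB6* it was 0.51 and 0.76, beside 0.03 and 0.18 for *PSMB9* and -0.48 and -0.58 for *PSMB6*. In both ratios the larger part thus lay in the constitutive subunit. The ratio of *B2M* to the sum of *HLA-B* and *HLA-C* was 1.58 ± 0.0373 for HK2, 2.08 ± 0.106 for 786-O and 1.61 ± 0.0643 for 786-M1A. It was higher in every 786-O library than in any other, and those of HK2 and 786-M1A overlapped.

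**Figure D3:**
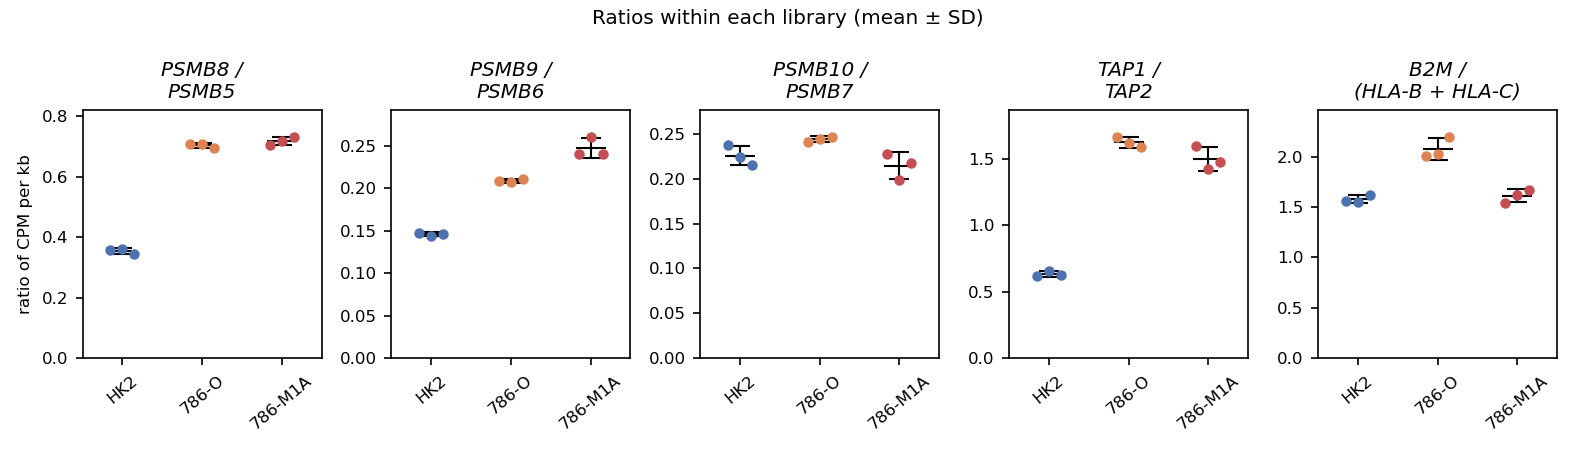
Ratios of CPM per kb (vertical axes, from 0) within each library for 5 pairs, with points for libraries and black marks for mean ± SD of 3 libraries. The ratios of *TAP1* to *TAP2* and of *PSMB8* to *PSMB5* are about 2-fold or more above HK2 in both cancer lines, and the ratio of *B2M* to *HLA-B* and *HLA-C* is highest in 786-O.

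The constitutive catalytic subunits themselves were lower in the cancer lines. *PSMB5* was at 197 ± 7.78 CPM (SD, n = 3) for HK2, 117 ± 1.89 for 786-O and 114 ± 4.26 for 786-M1A, with a log2 fold change against HK2 of -0.74 and -0.79 (edgeR adjusted p = 1.32e-13 and 4.64e-14). *PSMB6* had -0.48 and -0.58 (edgeR adjusted p = 6.11e-10 and 2.88e-11). *PSMB7* was lower in 786-O alone of the cancer lines (-0.22, edgeR adjusted p = 2.80e-05), with 0.03 in 786-M1A (edgeR adjusted p = 0.519), and higher in 786-M1A than in 786-O (0.24, edgeR adjusted p = 1.70e-05). *PSMB10* was not called in any comparison (log2 fold changes -0.10, -0.05 and 0.06). The interferon-inducible activator subunits *PSME1* and *PSME2* were lower in both, with -0.31 and -0.55 in 786-O and -0.24 and -0.50 in 786-M1A (the largest edgeR adjusted p was 2.66e-05). Of 9 tested catalytic subunits and activators outside the 9 genes, 3 were called higher and 5 lower in 786-O, and 2 higher and 5 lower in 786-M1A. Of 11 tested structural subunits of the 20S core, 4 were called higher and 4 lower in 786-O, and 2 higher and 8 lower in 786-M1A. For both lists, the shares of all genes tested were 41.6% higher in each line, and 42.6% and 43.3% lower.

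Of 15 genes of peptide loading and trimming, 8 were called higher and 5 lower in 786-O, with a median log2 fold change of 0.21. In 786-M1A, 7 were higher and 4 lower, with a median of 0.01. All genes tested stood at 41.6% higher in each line, and at 42.6% and 43.3% lower. Calnexin (*CANX*), which holds the free heavy chain, was higher in both (0.70 and 0.59, edgeR adjusted p = 1.44e-14 and 3.01e-13). Calreticulin (*CALR*) and the disulfide isomerase *PDIA3*, which sit in the loading complex beside tapasin, were higher in 786-O (0.22 and 0.42, edgeR adjusted p = 1.95e-06 and 3.26e-10) and at log2 fold changes of -0.02 and 0.01 in 786-M1A (edgeR adjusted p = 0.528 and 0.836). Between the cancer lines, *CALR* and *PDIA3* were lower in 786-M1A by log2 fold changes of -0.24 and -0.41 (edgeR adjusted p = 1.62e-06 and 2.19e-09), beside -0.37 for *B2M*. Of the aminopeptidases that trim peptides in the endoplasmic reticulum, *ERAP1* was lower in 786-O and 786-M1A (-0.22 and -0.25, edgeR adjusted p = 6.58e-05 and 1.80e-05) and *ERAP2* higher (0.30 and 0.11, edgeR adjusted p = 1.05e-06 and 0.0188). *LNPEP*, the aminopeptidase of endosomes, was lower in both, by -0.85 and -1.42 (edgeR adjusted p = 2.61e-04 and 1.11e-05).

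Among 26 regulators of class I genes, 10 were called higher and 11 lower in either cancer line against HK2. These counts were near the shares of all genes tested, 41.6% higher and 42.6% or 43.3% lower. *NLRC5*, the class I transactivator, was at 11.8 ± 0.402 CPM (SD, n = 3) for HK2, 24.5 ± 1.67 for 786-O and 26.0 ± 1.06 for 786-M1A. Its log2 fold change was 1.06 and 1.14 against HK2 (edgeR adjusted p = 6.69e-13 and 1.56e-13), and 0.08 between the cancer lines (edgeR adjusted p = 0.217). *IRF1* was higher by less (0.34 and 0.27, edgeR adjusted p = 1.88e-07 and 5.20e-06).

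Of 14 tested genes of interferon receptors and signalling, 4 were called higher and 8 lower in 786-O, and 6 higher and 6 lower in 786-M1A. Beside this, 41.6% of all genes tested were higher in each line, and 42.6% and 43.3% lower. The kinase *JAK2* was higher in both (log2 fold changes 1.75 and 1.44, edgeR adjusted p = 3.26e-15 and 1.70e-13), as was *USP18*, an interferon-induced inhibitor of the type I receptor (1.99 and 1.95, edgeR adjusted p = 6.77e-13 and 1.16e-12). The lambda receptor *IFNLR1* (-0.73 and -1.89, edgeR adjusted p = 7.00e-08 and 8.24e-14) and the signalling inhibitor *SOCS3* (-0.88 and -1.18, edgeR adjusted p = 2.53e-12 and 2.56e-14) were lower.

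**Figure D4:**
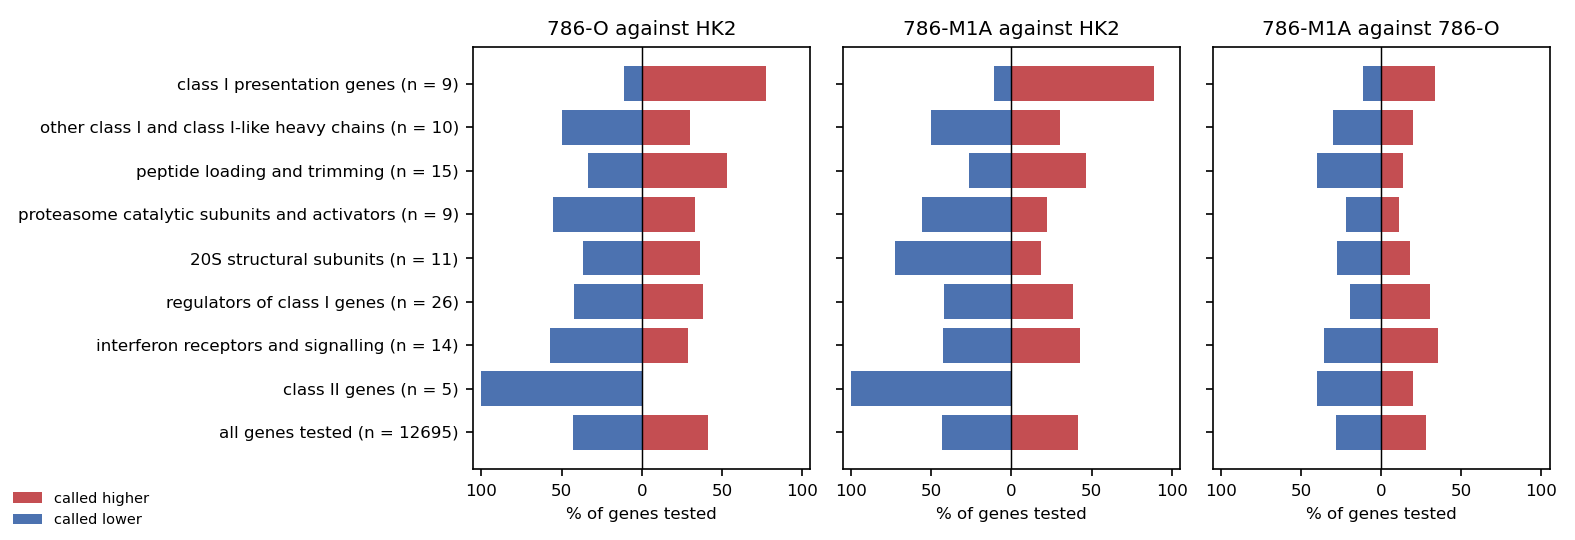
Share of the genes tested (horizontal axes, in percent) called higher (red, to the right) or lower (blue, to the left) in each comparison, for the 9 class I presentation genes, 7 further lists and all 12695 genes tested, with the number of genes in brackets. Of the 9 genes 7 and 8 are higher in the comparisons with HK2, beside 41.6% of all genes tested. The 5 class II genes that passed the filter on low counts, by their level in HK2 in the case of *HLA-DMA* and *HLA-DMB*, are lower in both. Beside them, 42.6% and 43.3% of all genes tested are lower.

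The position of the genes was not part of their choice. On chromosome 6, between the start of *HLA-E* and the end of *TAPBP* (30489509 to 33314078), 71 other genes were tested. In 786-O, 14 of these neighbours were called higher and 49 lower than in HK2, with a median log2 fold change of -0.42. In 786-M1A, 15 were higher and 49 lower, with a median of -0.37. Among all genes tested, 41.6% were called higher in each line, and 42.6% and 43.3% lower, with medians of -0.01 and -0.02. The 8 class I presentation genes of the region, 6 of them called higher in 786-O, thus lay among genes that were mostly lower than in HK2. Between 786-M1A and 786-O, 17 neighbours were higher and 14 lower, with a median of 0.05. The shares of all genes tested were 27.9% and 28.0%, with a median of 0. The number of copies of the region in each line was not measured here.

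**Figure D5:**
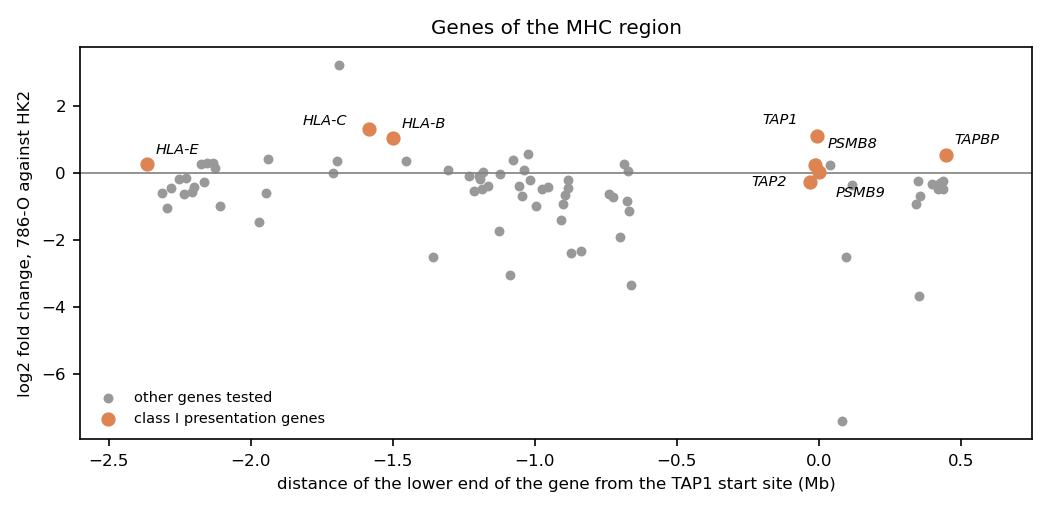
Log2 fold change between 786-O and HK2 (vertical axis) of 71 other tested genes (grey) and the 8 class I presentation genes (orange) on chromosome 6, against the distance in Mb of the lower end of each gene from the *TAP1* start site. *HLA-C*, *HLA-B* and *TAP1* stand at log2 fold changes above 1. Of the grey genes, 49 were called lower, beside 42.6% of all genes tested.

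The genes most like *B2M* and *TAP1* over the 9 libraries were found by the root mean square difference of log2 CPM after each gene was centred on its mean. For *B2M* they were *FHL2* (0.0469), *SRD5A3* (0.0534), *MRC2* (0.0618) and *TLDC2* (0.0753). *FHL2*, the closest, was at 120 ± 4.79 CPM (SD, n = 3) for HK2, 353 ± 6.89 for 786-O and 260 ± 5.91 for 786-M1A. For *TAP1* they were *YJU2B* (0.0380), *PDCD6* (0.0414), *SMARCD2* (0.0418) and *THEM6* (0.0427). *PDCD6* was at 70.2 ± 2.38 CPM for HK2, 144 ± 4.26 for 786-O and 147 ± 7.12 for 786-M1A. These genes were picked from 12695 for their likeness, and the 9 libraries are of 3 lines, so that many genes share such a pattern.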

How the data were processed

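RNA was extracted with an RNeasy kit, TruSeq Stranded mRNA libraries were run on a NextSeq 500, and the authors counted reads per gene with featureCounts of the Rsubread package on the hg38 (GRCh38) build. They deposited raw counts of reads for 28395 NCBI gene identifiers, without normalization or filter. The annotation version and strand setting are not given in the sources used here. RefSeq (GRCh38.p14) supplied symbols for 27745 identifiers, promoters and positions, and GENCODE 44 canonical transcript lengths and overlaps. A mean count of 50 was required, and testing was done with edgeR 4.0.16 in R 4.3.3 (TMM, robust quasi-likelihood, all 9 libraries in a single fit with a coefficient per line), and log2 CPM used a prior count of 2. Standard errors came from the log2 fold change and the F statistic. The study used limma after VSN, for which limma 3.58.1 on median-centred log2 counts stands in as an alternative.

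The other alternatives were DESeq2 1.42.0, RLE and upper-quartile scaling, no filter, at least 10 counts in every library, a fit of only the lines compared, a replicate block and leaving out each library. The tests were also run on simulated counts in which 200 of 12673 genes differed between 786-O and HK2. Of these, edgeR recovered 195 with 18 false calls, DESeq2 191 with 26 and limma 195 with 18. Far more genes were called in the real data, so this check does not cover lines that differ as widely as these. Libraries of a line differed by more than sampling noise (chi-square per degree of freedom 3.06 to 8.49), which does not by itself show independent cultures. The study describes replicate dishes plated the day before extraction, more per line than the 3 libraries deposited. How the 3 were chosen is not given in the sources used here. A figure legend of the study calls them independent cultures. Each library was counted as a replicate on that basis. P-values measure the spread between such dishes of 1 line. The 9 genes, the lists and the motifs were chosen with earlier results of these data known. Genes of other lists were named if called with at least a 2-fold difference (at most 4 per list), with a fixed set of loading, proteasome and regulatory genes always given. Some genes and a motif that these rules cover are not reported here. Figures were drawn with matplotlib 3.10.9, and other steps used pandas 2.3.3, scipy 1.17.1 and numpy 2.4.6 in Python 3.11.15.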

Additional observations from a re-analysis of the deposited data

Results flagged for a closer look

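Against HK2, 786-M1A and 786-O differed from each other for 4 of the 9 genes by the direct test between both lines, with 3 called higher and 1 lower, where 27.9% and 28.0% of all genes tested were called. The difference from HK2 was smaller in 786-M1A for *B2M* (by a log2 difference of -0.37, edgeR adjusted p = 1.57e-08, lower in 3 of 3 libraries) and larger for *HLA-E* (0.26, edgeR adjusted p = 6.49e-06, higher in 3 of 3 libraries). It was also larger for *PSMB9* (0.15, edgeR adjusted p = 0.0141), while *TAP2* lay less far below HK2 (0.091, edgeR adjusted p = 0.0488). Both were higher than in 786-O in 3 of 3 libraries. The *PSMB9* call was kept under all 8 other settings and lost on leaving out 786-O replicate 2. The *TAP2* call was kept under 3 of 8 settings. Groups of 3 libraries were too small for a test of single outlying libraries.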

How the results depend on the processing

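All 126 recomputed values of the 9 genes between 786-M1A and HK2 kept their direction and call, as did 125 of 126 between 786-O and HK2. The exception was the uncalled *PSMB9*, at -0.0080 under upper-quartile scaling. Between 786-M1A and 786-O, 112 of 126 did. There, *TAP2* lost its call with a log2 fold change of 0.084 under upper-quartile scaling, 0.078 under limma on centred log2 counts, 0.097 without a filter, 0.090 with at least 10 counts in every library and 0.091 in the fit of both lines alone. The uncalled *HLA-B* was at -0.0012 under limma. With single libraries left out, *TAP2* ran from 0.075 to 0.12, *PSMB9* from 0.13 to 0.19, *HLA-B* from -0.019 to 0.040, *HLA-C* from -0.059 to 0.0016, *TAP1* from -0.063 to 0.0085 and *PSMB8* from -0.027 to 0.0083. *B2M* stayed between -0.39 and -0.33 and *HLA-E* between 0.24 and 0.30. The causes were not tested. Without a filter on low counts, where 21241 genes were tested, genes with at least a 2-fold difference numbered 5410 for 786-O and 5895 for 786-M1A against HK2, and 1592 between the cancer lines. The replicate numbers of the labels named no shared batch. Same-numbered libraries deviated together with correlations of 0.215, 0.0740 and 0.110 across genes between the cancer lines, and of -0.167 to 0.0376 with HK2. With the replicate block, 10688, 10797 and 7157 genes were called, against 10693, 10784 and 7103, and the block changed no call of the 9 genes. The median log2 fold change of all genes tested moved by less than 0.1 under every scaling. The 9 genes had at least 896 counts in every library, so depth limits small differences least for *B2M* and most for *PSMB9*.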

Other observations

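Genes of MHC class II, which present peptides to CD4+ T cells, had few counts in most cases. Of 15 listed genes, 5 passed the filter on low counts, and *HLA-DMA* and *HLA-DMB* did so through their level in HK2, so that the direction of those that passed is in part set by the filter. *HLA-DPA1*, which did not pass and was named after its values were seen, had 17 to 23 counts in HK2, 57 to 59 in 786-O and 1 to 2 in 786-M1A. *HLA-DPB1*, which did not pass either and was named in the same way, had 55 to 65, 51 to 65 and 0 to 1. The invariant chain *CD74*, which blocks the groove of class II molecules, was at 128 ± 0.505 CPM (SD, n = 3) for HK2, 24.7 ± 0.964 for 786-O and 7.87 ± 0.479 for 786-M1A (log2 fold changes -2.37 and -4.02, edgeR adjusted p = 1.38e-21 and 2.54e-24). *HLA-DMB*, a subunit of the peptide editor of class II, had 470 to 700 counts per library in HK2, 1 to 6 in 786-O and 1 to 3 in 786-M1A, and *HLA-DMA*, its partner, 217 to 302, 39 to 57 and 8 to 12. *IFI30*, a lysosomal thiol reductase that acts on antigens, was at 101 ± 5.15, 10.7 ± 1.11 and 18.6 ± 1.15 CPM, with more in the metastatic line than in its parent (log2 fold change 0.80, edgeR adjusted p = 9.51e-09). *HLA-DRA*, which defines cells with surface class II, had 0 to 1 counts in every library.

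Of 10 tested class I and class I-like genes outside the 9, 3 were called higher and 5 lower in each cancer line against HK2, beside the 41.6% called higher and 42.6% or 43.3% called lower among all genes tested. The genes called higher, named after their values were seen, were *HLA-F* (log2 fold changes 0.80 and 0.68, edgeR adjusted p = 1.84e-10 and 4.20e-09), *ULBP2* (0.45 and 0.69, edgeR adjusted p = 1.03e-06 and 9.42e-10) and *MICA* (0.36 and 0.16, edgeR adjusted p = 1.53e-07 and 0.00317). *ULBP2* and *MICA* are ligands of NKG2D. *FCGRT*, the heavy chain of the neonatal Fc receptor, which also pairs with B2M, was at 24.3 ± 1.19 CPM (SD, n = 3) for HK2, 1.94 ± 0.397 for 786-O and 0.518 ± 0.0819 for 786-M1A (log2 fold changes against HK2 of -3.64 and -5.55, edgeR adjusted p = 4.95e-19 and 3.15e-20). *MICB*, another such ligand, which does not bind B2M, was at 57.3 ± 1.91, 10.1 ± 0.607 and 10.2 ± 0.263 CPM (log2 fold changes -2.51 and -2.49, edgeR adjusted p = 1.59e-20 and 1.91e-20). *HLA-G* (-1.72 and -1.57, edgeR adjusted p = 1.84e-11 and 7.23e-11) and *MR1*, which presents microbial vitamin metabolites (-0.97 and -1.47, edgeR adjusted p = 8.31e-13 and 1.36e-15), were lower as well.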
